A study of Danio rerio with 28 samples.

Results

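The zebrafish genes annotated with the symbol FHL2 were followed through heart regeneration in WT and *thraa* mutant fish. There were 2 of them among the 32520 Ensembl identifiers listed, ENSDARG00000042018 and ENSDARG00000003991, and both were read in all 28 libraries. They were chosen by their measured levels, which differed with injury and genotype in these same libraries. Their levels and changes are therefore given as a description, with no p-value, and the count of genes past the cutoffs is printed only as background. The tables used here did not tie either identifier to the names fhl2a and fhl2b. ENSDARG00000042018 had the higher TPM (the level per length of transcript that RSEM scales to a fixed total in each library) in 28 of 28 libraries and is called the major paralog. ENSDARG00000003991 is called the minor paralog.

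FHL2 belongs to a family of small proteins built of LIM domains, zinc-binding folds that hold other proteins together. It is the family member best known from the heart, where in mammals it sits at the sarcomere, binds titin and docks enzymes of energy supply such as creatine kinase, adenylate kinase and phosphofructokinase. In mammalian cells it also enters the nucleus and acts with transcription factors, and it holds back calcineurin signalling in cardiac growth. *thraa* encodes thyroid hormone receptor alpha a, a nuclear receptor that binds thyroid hormone.

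The time course held 24 libraries in 12 groups of 2. WT and *thraa*+/- fish of 4 to 6 months were sampled uninjured and at 8 h post injury (hpi) and 1, 3, 7 and 15 days post injury (dpi), where the injury was resection of the ventricular apex. The uninjured groups were ventricular apex and the injured groups were the injured zone. The sample labels call these mutants *thraa* KO, and the series description gives them as *thraa*+/-. The whole-heart experiment held 4 uninjured libraries, 2 WT and 2 labelled homozygous (*thraa*-/-), at the same age; its titles name the entire heart and its protocol names ventricles. The mutants carried an 8-bp insertion that truncates the receptor, in a CRISPR/Cas9 line, and every library pooled tissue of at least 5 fish. The labels call the libraries biological replicates.

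A time-course library summed to between 13692204 and 18775025 counts, and a whole-heart library to between 13656671 and 16532401. MYL7, the atrial and ventricular myosin light chain, held 139239 to 410308 counts in a library. None of 15 cardiomyocyte identifiers was at 0 in a group, but their levels ranged widely, and the lowest library held 2 counts of TBX20 and 5 of a TNNT2 identifier. *thraa* itself had 32 to 105 counts in the time course, and none of its 6 genotype differences passed the cutoffs (log2 fold changes from -0.41 to 0.40), so its count does not check the genotype labels. In the whole hearts *thraa* was higher in the libraries labelled *thraa*-/- (log2 fold change 0.95 ± 0.22 (SE, n = 2 per group), edgeR adjusted p = 0.0156). A gene-level count does not show the insertion.

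Within the time course both paralogs had their highest CPM in uninjured apex, and the *thraa*+/- apex was above the WT apex. The major paralog stood at 113.9 and 114.4 CPM (counts scaled to a common library size) in the WT libraries and at 155.2 and 163.3 CPM in the *thraa*+/- libraries. The minor paralog stood at 19.6 and 17.5 CPM in WT and at 27.0 and 28.3 CPM in *thraa*+/-. For each paralog both mutant libraries lay above both WT libraries. The log2 fold change between the genotypes was 0.48 ± 0.07 (SE, n = 2 per group) for the major and 0.57 ± 0.18 for the minor paralog. With each library of these groups left out in turn, it was 0.38 to 0.47 for the major and 0.45 to 0.60 for the minor. Neither reached a log2 fold change of 1, which together with an adjusted p under 0.05 made up the cutoffs of the time course, and 11.5% of the 17837 genes tested passed them in this comparison. On the TPM scale the WT apex held 65.6 and 70.1 TPM of the major and 6.47 and 5.78 TPM of the minor paralog.

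In WT hearts the major paralog fell away within 8 h and came partly back by 1 dpi, then declined again. It was at 20.9 and 22.8 CPM at 8 hpi, 5.23-fold below uninjured (log2 fold change -2.39 ± 0.08, past the cutoffs, as were 29.0% of genes). It then held 63.9 and 68.2 CPM at 1 dpi and 64.6 and 64.3 CPM at 3 dpi. These levels were below uninjured by log2 fold changes of -0.79 ± 0.07 and -0.83 ± 0.08, short of the cutoffs, which 25.6% and 35.2% of genes passed. At 7 dpi it was at 39.1 and 44.9 CPM (-1.44 ± 0.08, past the cutoffs, with 37.8% of genes). At 15 dpi it was at 29.5 and 28.7 CPM (-1.97 ± 0.08, past the cutoffs, with 18.7% of genes). The 15 dpi libraries were thus closer to the 8 hpi than to the uninjured level, and no injured WT library reached an uninjured one in CPM. In TPM the 3 dpi libraries (64.1 and 66.1) overlapped those of the apex (65.6 and 70.1).

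The minor paralog in WT hearts took another course, with its lowest level at 7 dpi. It went from 19.6 and 17.5 CPM uninjured to 6.96 and 6.79 CPM at 8 hpi and 4.70 and 3.30 CPM at 1 dpi. It was at 5.60 and 5.80 CPM at 3 dpi, at 1.68 and 2.97 CPM at 7 dpi and at 5.71 and 5.85 CPM at 15 dpi. The log2 fold changes from uninjured were -1.43 ± 0.20, -2.22 ± 0.21, -1.70 ± 0.20, -3.00 ± 0.22 and -1.68 ± 0.20 in that order, each past the cutoffs. The 7 dpi libraries, which lay 8.02-fold below uninjured on average, were below all other WT libraries in CPM, while in TPM they (1.24 and 1.92) overlapped those of 1 dpi (1.82 and 2.17).

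In *thraa*+/- hearts the major paralog fell further from its uninjured level at 8 hpi and was higher at 7 and 15 dpi than in WT. It was at 23.2 and 21.7 CPM at 8 hpi, a log2 fold change of -2.82 ± 0.08 from its own uninjured group. It then was at 48.9 and 47.6 CPM at 1 dpi (-1.72 ± 0.08), 48.2 and 46.4 CPM at 3 dpi (-1.75 ± 0.08), 77.9 and 80.2 CPM at 7 dpi (-1.01 ± 0.07) and 78.4 and 74.2 CPM at 15 dpi (-1.06 ± 0.07). All of these passed the cutoffs, which 30.5%, 30.7%, 31.9%, 36.5% and 11.9% of genes passed at 8 hpi and 1, 3, 7 and 15 dpi. The 7 and 15 dpi libraries were higher than all libraries from 8 hpi to 3 dpi, where in WT the later libraries were lower than those of 1 and 3 dpi. The last pair of changes lay at the edge of the cutoff: without uninjured *thraa*+/- replicate 2 they were -0.96 at 7 dpi and -0.99 at 15 dpi, and without 7 dpi *thraa*+/- replicate 1 the former was -0.99.

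The minor paralog was nearly lost from *thraa*+/- hearts at 8 hpi. Its counts were 7 (exact Poisson 95% interval 2.81 to 14.4) and 10 (4.80 to 18.4), against 100 and 96 counts in WT at the same time, and the intervals cover counting error only. In CPM it went from 27.0 and 28.3 uninjured to 0.47 and 0.74 at 8 hpi, a 45.7-fold lower level (log2 fold change -5.51 ± 0.28). It was at 3.79 and 3.00 CPM at 1 dpi (-3.01 ± 0.21) and at 3.09 and 2.47 CPM at 3 dpi (-3.31 ± 0.21). It then was at 8.79 and 8.71 CPM at 7 dpi (-1.66 ± 0.18) and at 10.9 and 9.30 CPM at 15 dpi (-1.44 ± 0.18). The 8 hpi libraries were the lowest of all 28, and each of these changes passed the cutoffs. The highest group mean CPM over the time course was 45.9 times the lowest in *thraa*+/- and 7.96 times in WT, where the major paralog spanned 7.09 and 5.23 times.

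**Figure D1:**
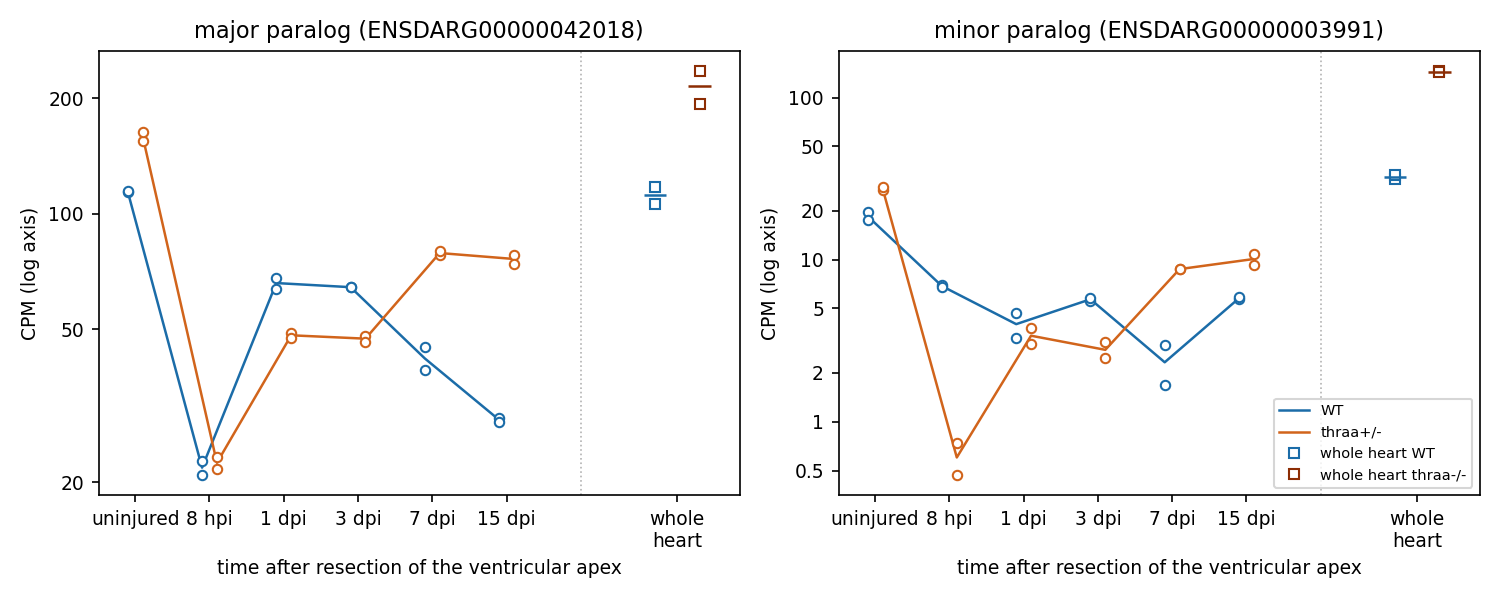
CPM (log axis) of the major (left) and minor (right) fhl2 paralog by time, with a point for each library and a line through the means of the 2 libraries of WT (blue) and *thraa*+/- (orange); squares and bars are the whole-heart libraries and their means, normalized apart. The lowest points of the minor paralog are the *thraa*+/- libraries at 8 hpi, 0.47 and 0.74 CPM.

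These changes with injury depended on how the libraries were scaled. TMM scaling factors were 0.68 to 0.70 in the uninjured and 0.89 to 1.29 in the injured libraries. The median log2 fold change of all genes tested was between 0.00 and 0.22 in the injury comparisons, and between 0.45 and 1.06 with total counts as the scale. On that scale or in TPM, the calls of the major paralog in WT at 7 dpi and in *thraa*+/- at 3, 7 and 15 dpi and those of the minor paralog in WT at 8 hpi and 3 dpi and in *thraa*+/- at 7 dpi were lost. The calls of the minor paralog at 15 dpi were lost in both genotypes with log2(TPM + 1), and in *thraa*+/- also with log2(TPM + 0.1). With total counts the major paralog in WT hearts at 3 dpi was at -0.02, and in *thraa*+/- hearts at 7 dpi at -0.11. In TPM the latter were 90.9 and 89.6 against 84.3 and 91.6 uninjured, which overlapped, and the minor paralog in *thraa*+/- at 7 dpi (5.28 and 7.29 TPM) overlapped the WT apex. Comparisons between the genotypes within the time course showed no such shift, while in the whole hearts the median of all genes was -0.02, and -0.27 with total counts.

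Between the genotypes, the sign of the difference turned over time for both paralogs, higher in *thraa*+/- without injury, lower at 3 dpi and higher again at 7 and 15 dpi. For the major paralog at 1 dpi both *thraa*+/- libraries (48.9 and 47.6 CPM) were below both WT libraries (63.9 and 68.2 CPM), with a log2 fold change of -0.45 ± 0.08. The same value, -0.45 ± 0.08, was found at 3 dpi. At 7 dpi the mutant libraries (77.9 and 80.2 CPM) were above those of WT (39.1 and 44.9 CPM), with 0.91 ± 0.08. At 15 dpi they were above by 1.39 ± 0.08, with 78.4 and 74.2 CPM against 29.5 and 28.7 CPM. At 8 hpi the libraries overlapped, and the difference of 0.04 ± 0.09 had no steady sign.

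Of these differences in the major paralog, the one at 15 dpi passed the cutoffs, where 7.85% of genes did. The shares of all genes past the cutoffs were 7.59% at 1 dpi, 8.57% at 3 dpi and 6.25% at 7 dpi. Without WT replicate 2 the 7 dpi difference was 1.01 and passed.

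The minor paralog differed most at 8 hpi, where *thraa*+/- was 11.4-fold lower than WT. The WT libraries held 6.96 and 6.79 CPM and the mutant libraries 0.47 and 0.74 CPM, a log2 fold change of -3.51 ± 0.32, in a comparison where 10.5% of genes passed the cutoffs. At 1 dpi the libraries overlapped in CPM (-0.22 ± 0.24; 0.05 without WT replicate 1). At 3 dpi WT had 5.60 and 5.80 CPM and *thraa*+/- 3.09 and 2.47 CPM (-1.03 ± 0.22, past the cutoffs; -0.88 and not past without *thraa*+/- replicate 2).

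At 7 dpi the order was turned, with 8.79 and 8.71 CPM of the minor paralog in *thraa*+/- and 1.68 and 2.97 CPM in WT, 3.78-fold higher (1.92 ± 0.22, past the cutoffs). At 15 dpi the mutant libraries were above those of WT by 0.81 ± 0.20, short of the cutoff. In CPM the paralogs thus differed in when their gap was widest: 8 hpi and 7 dpi for the minor, 15 dpi for the major.

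**Figure D2:**
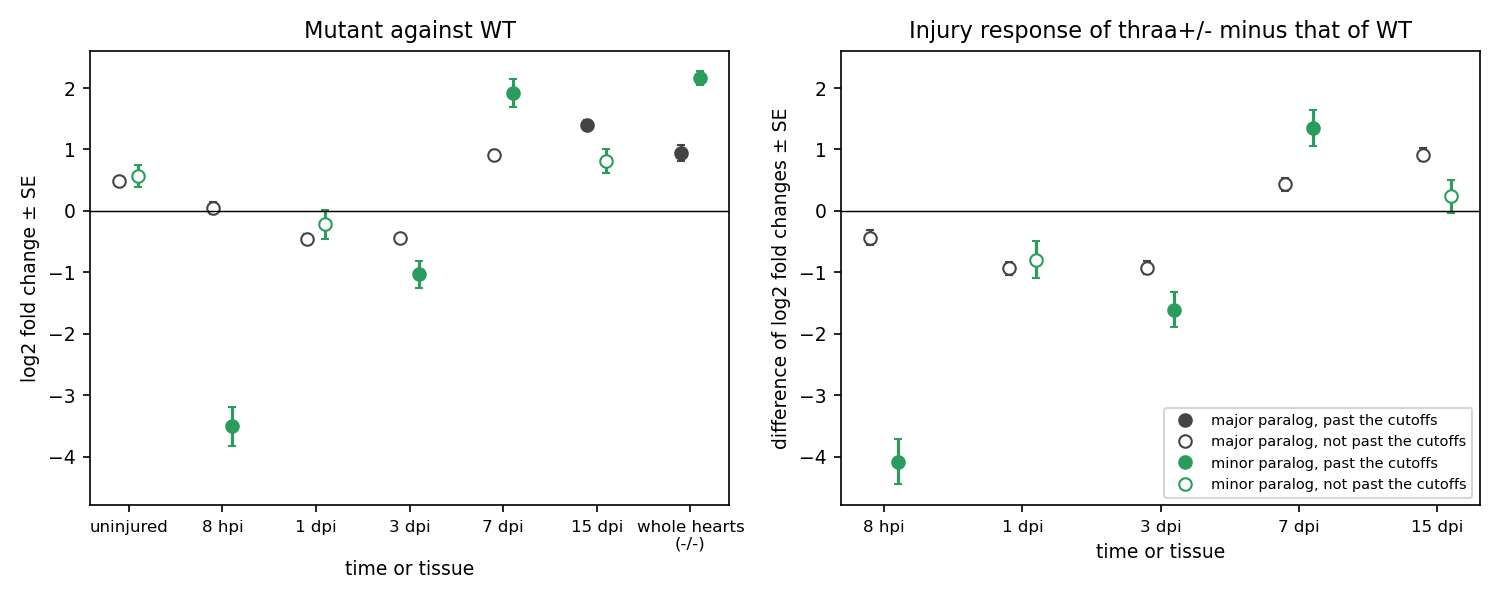
Left, log2 fold change of mutant against WT at each time and in whole hearts; right, difference between the injury responses of *thraa*+/- and WT; bars are SE from the fit, and filled points passed the cutoffs. In the time course the minor paralog (green) runs from -3.51 at 8 hpi to 1.92 at 7 dpi, and the major paralog (grey) from -0.45 at 1 dpi to 1.39 at 15 dpi; in whole hearts they are at 2.16 and 0.94.

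The difference in the injury response itself was fitted as an interaction with the uninjured groups as the base, which takes the uninjured gap out of each value. For the minor paralog the response of *thraa*+/- minus that of WT was -4.08 ± 0.37 at 8 hpi, -0.79 ± 0.30 at 1 dpi, -1.61 ± 0.29 at 3 dpi, 1.35 ± 0.29 at 7 dpi and 0.24 ± 0.27 at 15 dpi on the log2 scale. Those at 8 hpi, 3 dpi and 7 dpi passed the cutoffs, which 14.1%, 8.74% and 12.7% of genes passed. Without WT 7 dpi replicate 1 the value at 7 dpi was 0.98 and did not pass, and without WT 1 dpi replicate 2 the value at 1 dpi was -1.03 and passed. For the major paralog the values were -0.44 ± 0.12, -0.93 ± 0.11, -0.93 ± 0.11, 0.43 ± 0.11 and 0.91 ± 0.11, all short of the cutoff of 1. The cutoffs were passed by 10.9% of genes at 1 dpi and 9.23% at 15 dpi.

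In uninjured whole hearts both paralogs were higher in the *thraa*-/- libraries. The minor paralog stood at 31.3 and 33.5 CPM in WT and at 146 and 144 CPM in *thraa*-/-, 4.47-fold higher (log2 fold change 2.16 ± 0.11). The major paralog stood at 106 and 118 CPM in WT and at 194 and 236 CPM in *thraa*-/-, 1.92-fold higher (0.94 ± 0.12). Both passed the whole-heart cutoffs, an adjusted p under 0.05 and a change of at least 1.5-fold, as did 19.2% of the 15793 genes tested. The mutant libraries lay above those of WT on the TPM scale also, with 82.2 and 83.2 against 23.4 and 22.4 TPM for the minor and 172 and 202 against 123 and 130 TPM for the major paralog. Under limma on log2(TPM + 1) the change in the major paralog was 0.56 and no longer passed.

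Per length of transcript the major paralog dominated throughout, at 2.10 to 66.9 times the TPM of the minor. The minor paralog made up 7.62% and 8.98% of the TPM of both in the WT apex and 9.20% and 9.29% in the *thraa*+/- apex, which did not overlap. At 8 hpi it made up 13.7% and 14.7% in WT and 1.47% and 1.71% in *thraa*+/-, the highest and the lowest shares of the time course. At 7 dpi it made up 2.83% and 3.49% in WT and 5.49% and 7.53% in *thraa*+/-. In whole hearts the shares were 14.7% and 16.0% in WT and 29.2% and 32.3% in *thraa*-/-, so that here the minor paralog came to 30.7% ± 2.22 (SD, n = 2). The summed TPM of both was 72.1 and 75.9 in the WT apex and 93.0 and 101 in the *thraa*+/- apex. At 15 dpi the sum was 31.4 and 32.7 in WT and 66.7 and 71.0 in *thraa*+/-.

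**Figure D3:**
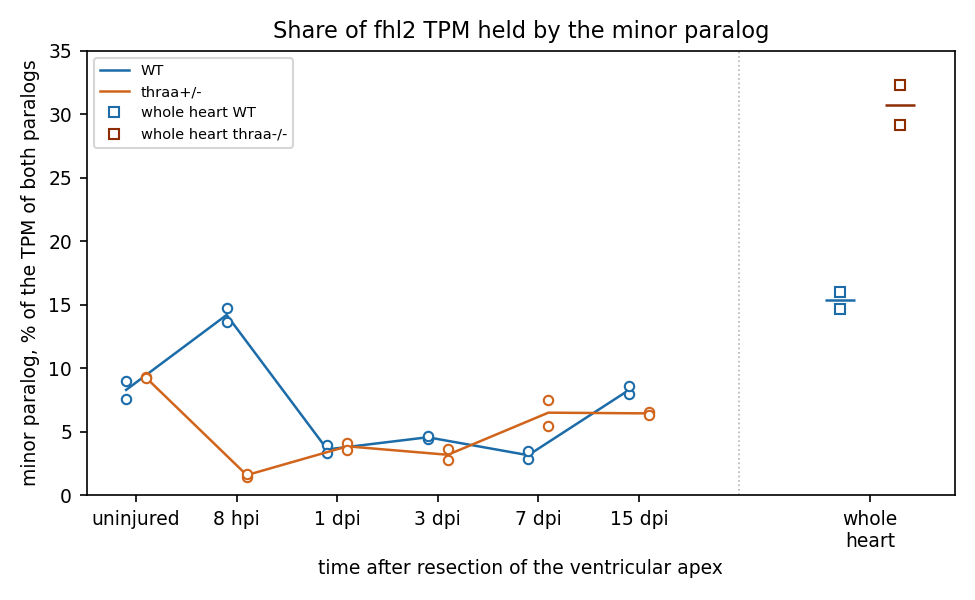
Share of the TPM of both fhl2 paralogs that the minor paralog held in each library, with lines through the means of the 2 libraries; squares are whole hearts. The share at 8 hpi was 13.7% and 14.7% in WT and 1.47% and 1.71% in *thraa*+/-, and the *thraa*-/- whole hearts held the highest shares, 29.2% and 32.3%.

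Ordered by mean CPM, the major paralog ran from the uninjured *thraa*+/- group (159 ± 5.74, SD, n = 2) through uninjured WT (114 ± 0.37), *thraa*+/- at 7 dpi (79.1 ± 1.63) and 15 dpi (76.3 ± 2.93) down to *thraa*+/- and WT at 8 hpi (22.5 ± 1.07 and 21.8 ± 1.35). The neighbours in this order whose libraries overlapped were *thraa*+/- at 7 and 15 dpi, WT at 1 and 3 dpi, *thraa*+/- at 1 and 3 dpi, and both groups at 8 hpi. The minor paralog ran from uninjured *thraa*+/- (27.6 ± 0.91) and uninjured WT (18.5 ± 1.5) through *thraa*+/- at 15 dpi (10.1 ± 1.13) and 7 dpi (8.75 ± 0.06) to *thraa*+/- at 8 hpi (0.60 ± 0.19). Here WT at 15 and 3 dpi overlapped, and so did each of the neighbours among WT at 1 dpi, *thraa*+/- at 1 dpi, *thraa*+/- at 3 dpi and WT at 7 dpi. The order by mean TPM differed. For the major paralog *thraa*+/- at 7 dpi (90.2 TPM) came before uninjured *thraa*+/- (87.9 TPM), with overlapping libraries. For the minor paralog it (6.285 TPM) came before uninjured WT (6.125 TPM), again with overlap. The higher library of a group exceeded the lower by a median of 1.05 times for the major and 1.1 times for the minor paralog, and by 1.77 times at most, for the minor in WT at 7 dpi.

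The paralogs were also set beside 15 identifiers of cardiomyocyte genes. In bulk tissue, fewer cardiomyocytes and less RNA per cardiomyocyte cannot be told apart. In WT hearts the median log2 fold change of the list was -0.59 at 8 hpi, -0.96 at 1 dpi, -1.56 at 3 dpi, -1.48 at 7 dpi and -0.59 at 15 dpi. Relative to the mean log2 CPM of the list, the major paralog was 2.29 lower than uninjured at 8 hpi and 1.86 lower at 15 dpi, but only 0.07 lower at 1 dpi and 0.39 higher at 3 dpi. The mean of the list was itself 8.41 uninjured, 8.32 at 8 hpi and 8.30 at 15 dpi. The summed CPM of the list, which its most abundant genes weigh on most, moved more. It was 128503 to 131532 uninjured, 59637 to 60961 at 8 hpi and 64606 to 65350 at 15 dpi. With the median of the list as the base the major paralog was 1.71 lower at 8 hpi and 1.36 lower at 15 dpi. On log2(TPM + 1) it was 1.81 and 1.40 lower. The 1 dpi value was 0.90 with the median of the list as the base. In *thraa*+/- hearts the major paralog was 2.29 lower at 8 hpi, 0.75 lower at 1 dpi and 0.71 lower at 3 dpi. It was 0.06 lower at 7 dpi with overlapping libraries, and 1.16 lower at 15 dpi. With the median of the list as the base the 8 hpi value was 1.201 lower, but the 1 dpi value was 0.47 higher. The 7 dpi value was then 0.52 higher (0.31 higher on log2(TPM + 1)). The minor paralog was below the uninjured groups relative to the mean of the list at all times in both genotypes, from 0.46 lower in WT at 3 dpi (0.14 higher with the median as the base) to 4.74 lower in *thraa*+/- at 8 hpi.

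On this base the genotype differences at 3, 7 and 15 dpi kept their direction for both paralogs. Between the genotypes the list had medians from -0.28 to 0.31. Relative to it the major paralog was higher in *thraa*+/- by 1.08 at 7 dpi and 1.03 at 15 dpi and lower by 0.78 at 3 dpi. At 8 hpi, where its CPM overlapped, it was higher by 0.34, and by 0.89 with the median of the list as the base. The minor paralog was lower by 2.99 at 8 hpi and 1.34 at 3 dpi and higher by 2.07 at 7 dpi and 0.43 at 15 dpi. In the whole hearts the differences were 0.79 for the major and 2.01 for the minor paralog.

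**Figure D4:**
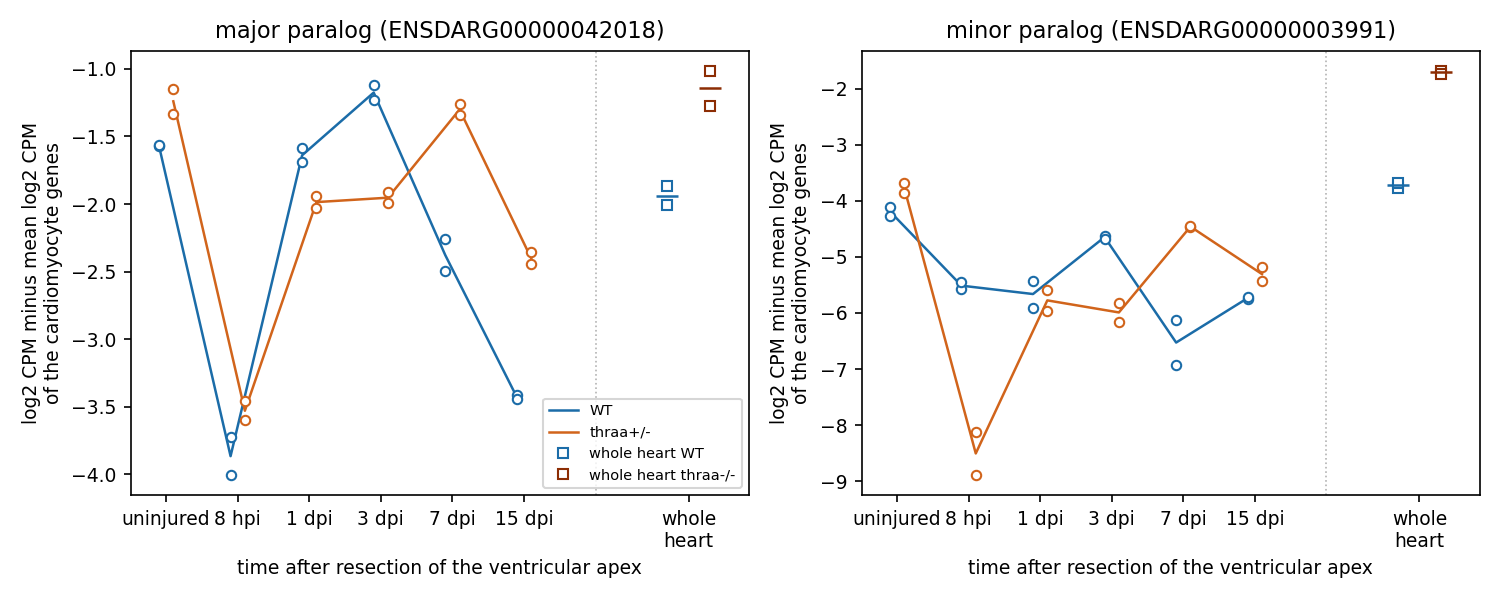
log2 CPM of each fhl2 paralog minus the mean log2 CPM of 15 identifiers of cardiomyocyte genes in the same library, with lines through the means of the 2 libraries; squares are whole hearts. For the major paralog the WT and *thraa*+/- lines cross between 8 hpi and 1 dpi, where the difference goes from 0.34 to -0.35, and again between 3 and 7 dpi, from -0.78 to 1.08.

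Markers of other cells also differed between the genotypes at the times of the widest gaps. At 8 hpi, 6 of the 10 tested leukocyte identifiers rose above WT in *thraa*+/- and none fell, where 10.5% of all genes passed the cutoffs, and the summed level of the list was 226 and 243 CPM in WT and 768 to 855 CPM in *thraa*+/-. The cardiomyocyte list then summed to 59637 to 60961 CPM in WT and 46634 to 59186 CPM in *thraa*+/-. At 7 dpi, 9 of the 10 tested skeletal muscle identifiers were lower in *thraa*+/- and none was higher, where 6.25% of all genes passed, with a summed level of 328 to 334 CPM in WT and 74.7 to 77.6 CPM in *thraa*+/-. No identifier of that list was then at 0 in either group. Of 8 tested smooth muscle identifiers 1 was higher in *thraa*+/- at 7 dpi and 0 were lower. That list summed to 706 to 712 CPM in WT and 1005 to 1023 CPM in *thraa*+/-, in the direction of both fhl2 paralogs. So it did at 3 dpi, with 748 to 755 CPM in WT and 530 to 561 CPM in *thraa*+/-. It went against both paralogs in the uninjured apex (560 to 564 and 364 to 379 CPM) and at 15 dpi (404 to 416 and 353 to 367 CPM). At 8 hpi (309 to 310 and 438 to 461 CPM) it went against the minor paralog. At 1 dpi (403 to 423 and 497 CPM) it went against the major paralog. In the whole hearts 6 of 10 leukocyte identifiers were lower in *thraa*-/-, where 19.2% of all genes passed, with sums of 140 to 141 and 78.9 to 87.1 CPM. Of 4 erythrocyte identifiers 2 were higher there and 1 lower (5729 to 8860 and 11852 to 12390 CPM). Of 6 endothelial identifiers 2 were higher and 0 lower (600 to 652 and 721 to 760 CPM). Higher and lower were 2 and 2 of 9 smooth muscle and 2 and 2 of 15 cardiomyocyte identifiers. They were 0 and 2 of 10 fibroblast matrix and 1 and 0 of 4 skeletal muscle identifiers. At 15 dpi 5 of 10 skeletal muscle identifiers were higher in *thraa*+/- and 1 was lower, where 7.85% of all genes passed, and the list summed to 21.1 to 25.1 CPM in WT and 27.6 to 34.4 CPM in *thraa*+/-. Of 10 leukocyte identifiers 2 were then lower in *thraa*+/- and 0 higher, with sums of 279 to 283 CPM in WT and 200 CPM in *thraa*+/-. In the uninjured apex, the base of the response differences, markers differed too, where 11.5% of all genes passed. Lower in *thraa*+/- were 4 of 10 fibroblast matrix, 3 of 8 smooth muscle, 3 of 10 leukocyte and 2 of 4 erythrocyte identifiers. Higher were 1 smooth muscle, 2 of 10 skeletal muscle and 2 of 15 cardiomyocyte identifiers. The cardiomyocyte list had a median log2 fold change of -0.08, however. It summed to 128503 to 131532 CPM in WT and 110450 to 111497 CPM in *thraa*+/-. The fibroblast matrix list summed to 1761 to 1816 CPM in WT and 980 to 1032 CPM in *thraa*+/-. The part of these cells in the fhl2 differences was not tested.

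Among the other FHL genes, ENSDARG00000034643 (FHL3, which binds actin in mammals) went the opposite way to fhl2 after injury. It rose in WT at 8 hpi (log2 fold change 1.31 ± 0.12, edgeR adjusted p = 3.91e-12), 1 dpi (1.3 ± 0.12), 3 dpi (2.28 ± 0.12) and 7 dpi (1.90 ± 0.12), from 8.6 and 10.7 CPM uninjured to 45.9 and 48.1 CPM at 3 dpi. It rose in *thraa*+/- at the same times by 1.60 to 2.84. At 1 dpi it was higher in *thraa*+/- than in WT by 1.13 ± 0.10 (adjusted p = 7.70e-13). The second FHL3 identifier, ENSDARG00000104315, rose at 3 dpi in both genotypes (1.22 ± 0.13 and 1.60 ± 0.15) and at 7 dpi in *thraa*+/- (2.77 ± 0.14), where it stood above WT by 1.38 ± 0.11 (adjusted p = 4.30e-13).

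FHL1, whose human form is mutated in several myopathies, was by far the most abundant member, with a mean of 1128.5 TPM of ENSDARG00000071498 in the WT apex against 67.8 TPM of the major fhl2 paralog. It fell in WT at 1 dpi (-1.25 ± 0.07, adjusted p = 8.68e-20), 3 dpi (-1.13 ± 0.07) and 7 dpi (-1.43 ± 0.07), and in *thraa*+/- at 1 and 7 dpi. With total counts these 5 values were -0.32 to -0.66 and none passed. In *thraa*+/- at 3 dpi FHL1 ENSDARG00000071498 was short of the cutoffs, but it passed under DESeq2 (-1.01). Its 1 dpi call in *thraa*+/- was lost with no filter (-0.97). None of its genotype differences in the time course passed the cutoffs, and in whole hearts it was 1.57-fold higher in *thraa*-/- (0.65 ± 0.09, adjusted p = 0.00107), a call lost with total counts (0.39) and without *thraa*-/- replicate 1 (0.63, adjusted p = 0.0502). The second FHL1 identifier, ENSDARG00000056653, rose in WT at 3 dpi (1.71 ± 0.12), 7 dpi (1.40 ± 0.12) and 15 dpi (1.06 ± 0.12), and in *thraa*+/- its changes at these times were 0.44, 0.67 and 0.12. With total counts the former pair was 1.21 and 1.57 and passed, and without WT uninjured replicate 1 the WT value at 15 dpi was 0.98 and did not. FHL5, ENSDARG00000014805, held at most 19 counts in a time-course library, was tested in whole hearts alone, and gave -0.34 there.

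**Figure D5:**
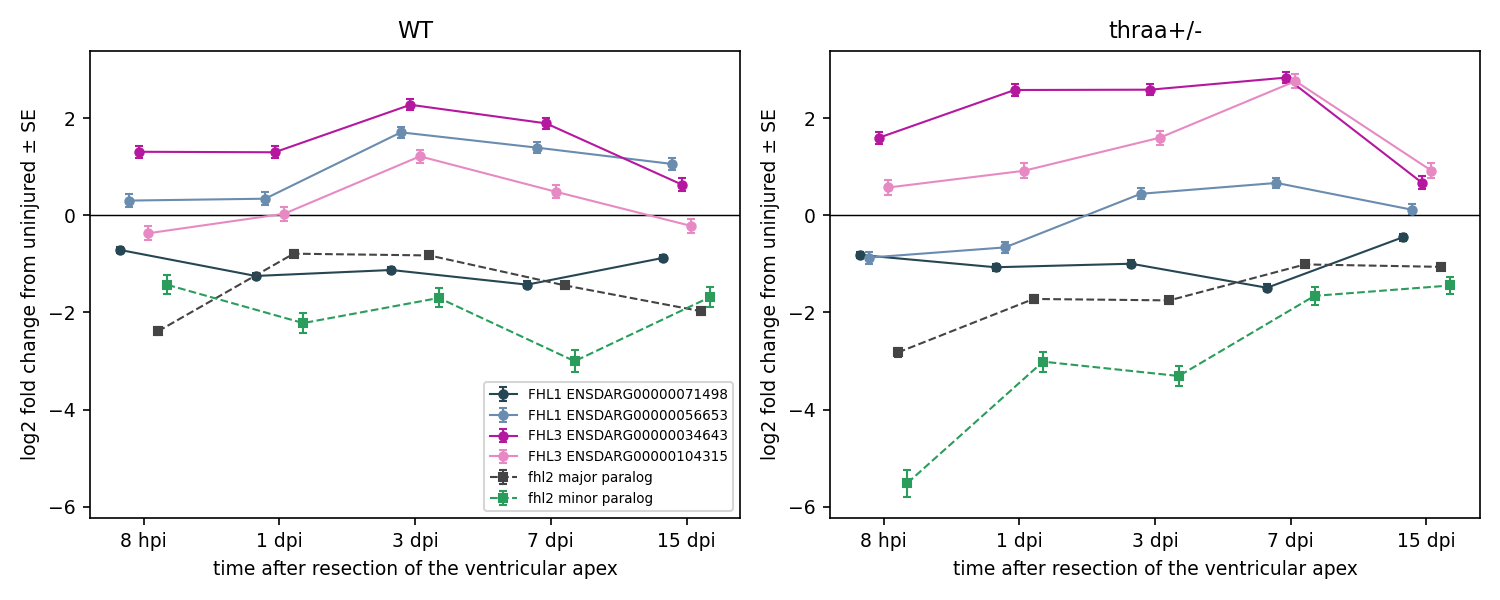
log2 fold change from uninjured ± SE of the 4 other tested FHL identifiers (solid lines) and of both fhl2 paralogs (dashed) in WT (left) and *thraa*+/- (right). The FHL3 identifier ENSDARG00000034643 lies above 0 throughout, at 2.28 in WT and 2.59 in *thraa*+/- at 3 dpi, and both fhl2 paralogs lie below 0.

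Titin and the enzymes that FHL2 docks on it in mammals fell with injury, to an extent that differed by time. At 8 hpi 3 of 7 identifiers were lower and past the cutoffs in each genotype, 1 in WT and 2 in *thraa*+/- with total counts. In either direction 29.0% and 30.5% of all genes then passed. At 15 dpi 5 of 7 were lower in WT and 2 of 7 in *thraa*+/-, 1 and 0 with total counts. Of all genes 18.7% and 11.9% then passed. At 3 dpi 7 of 7 identifiers were lower and past the cutoffs in WT (median log2 fold change -2.01, against 0.18 for all genes) and 7 of 7 in *thraa*+/- (median -1.55, against 0.10), where 14.4% and 12.7% of all genes tested were. With total counts 7 of 7 were lower and past the cutoffs in WT and 2 of 7 in *thraa*+/-, as were 997 and 730 of all 17837 genes tested. Examples in WT at 3 dpi are the titin identifier ENSDARG00000000563 (-2.13), muscle creatine kinase *ckma* (-2.01), adenylate kinase AK1 (-1.97) and the phosphofructokinase PFKM ENSDARG00000014179 (-2.29). The cardiomyocyte list fell at 3 dpi as well. In WT 9 of its 15 identifiers were lower and 1 higher (median -1.56), and in *thraa*+/- 10 were lower and 0 higher (median -1.19). Between the genotypes 5 of the 7, namely both titin identifiers, *ckma*, AK1 and PFKM ENSDARG00000060797, passed the cutoffs at no time. The other 2 passed. One was *ckmb*, a second muscle creatine kinase, which was higher in *thraa*+/- at 1 dpi (2.25 ± 0.14, adjusted p = 2.84e-17), 3 dpi (3.12 ± 0.18) and 15 dpi (1.58 ± 0.13) and lower at 7 dpi (-1.34 ± 0.11). PFKM ENSDARG00000014179 was higher in *thraa*+/- at 1 dpi (1.43 ± 0.14) and lower in *thraa*-/- whole hearts (-0.72 ± 0.19, adjusted p = 0.0229). At 7 dpi, when both fhl2 paralogs were higher in *thraa*+/-, *ckmb* stood at 58.3 and 61.2 CPM in WT and 23.0 and 24.2 CPM in *thraa*+/-, in the direction of the skeletal muscle list. At 3 dpi, where *ckmb* differed most, 1 of 10 identifiers of that list was higher and 2 were lower. At 1 dpi 2 were higher and 0 lower, and at 15 dpi 5 were higher and 1 lower. The cutoffs were passed by 7.59%, 8.57% and 7.85% of all genes at 1, 3 and 15 dpi.

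Other LIM proteins moved in both directions. At 7 dpi 10 of 20 tested identifiers were lower and 2 higher in WT, and 4 were lower and 4 higher in *thraa*+/-, where 37.8% and 36.5% of all genes passed the cutoffs. With total counts these were 4 lower and 5 higher in WT and 2 lower and 9 higher in *thraa*+/-. Of all 17837 genes tested, 765 were then lower and 8344 higher in WT, and 749 lower and 8222 higher in *thraa*+/-. Among the named identifiers the largest falls at 8 hpi, 1 dpi and 3 dpi were those of *ldb3a* and *ldb3b*, Z-disc proteins, with -2.45 ± 0.07 and -2.89 ± 0.07 in WT at 3 dpi. LPP and LASP1, proteins of cell adhesion and the actin cytoskeleton, rose at 3 dpi in WT (1.68 ± 0.11 and 1.37 ± 0.07) and in *thraa*+/- (1.71 ± 0.12 and 1.34 ± 0.07). Between the genotypes, PDLIM5 ENSDARG00000101777, a Z-disc PDZ-LIM protein in mammals, was higher in *thraa*+/- uninjured (1.57 ± 0.30, adjusted p = 4.81e-05), at 8 hpi (1.05 ± 0.22), 1 dpi (2.08 ± 0.26), 3 dpi (1.93 ± 0.29) and 15 dpi (1.57 ± 0.28). It was also 3.38-fold higher in *thraa*-/- whole hearts (9.0 and 11.7 against 34.9 and 35.2 CPM, adjusted p = 0.000151). Its expected count was not whole in every library, as where RSEM divides reads between genes. In TPM its time-course differences did not pass: with log2(TPM + 1) they were 0.30 uninjured, 0.51 at 8 hpi, 0.83 at 1 dpi, 0.55 at 3 dpi and 0.48 at 15 dpi.

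Of 17 tested identifiers of signalling partners of mammalian FHL2, 3 rose and 2 fell in WT at 8 hpi, beside 29.0% of all genes past the cutoffs, and 3 rose and 1 fell at 7 dpi, beside 37.8%. In *thraa*+/- 5 rose and 3 fell at 8 hpi (30.5% of all genes) and 4 rose and 0 fell at 7 dpi (36.5%). With total counts, where the median of all genes was itself 1.06 and 1.03, the 7 dpi counts were 13 higher and 0 lower in WT and 12 higher and 0 lower in *thraa*+/-. On that scale 8344 of all 17837 genes tested were higher and 765 lower in WT, and 8222 higher and 749 lower in *thraa*+/-. JUN ENSDARG00000043531, an AP-1 transcription factor, was at the edge of the cutoff between the *thraa*+/- and the WT apex (1.0 ± 0.07, adjusted p = 1.65e-16; 0.91 to 0.98 and not past with any library of these groups left out). In *thraa*-/- whole hearts it was at -1.19 ± 0.26 (adjusted p = 0.0403). That call was lost with a replicate block (adjusted p = 0.083), with no filter (0.14) and without either *thraa*-/- library (0.128 and 0.0739). The integrin ITGB1 ENSDARG00000071863 was higher in *thraa*+/- at 15 dpi (1.14 ± 0.08) and in *thraa*-/- whole hearts (0.88 ± 0.11).

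The genes whose log2 CPM followed each paralog most closely over the 24 time-course libraries were sought among 13709 genes. These correlations are descriptions; the libraries share their scaling, come in pairs of a group and differ from apex to wound. For the major paralog they were ISOC2 (r = 0.90), PLD1 (0.90), *tdh* (0.89), si:ch211-133n4.4 (0.85) and NUCB2 (0.84). For the minor paralog they were si:ch211-209p16.4 (0.85), CAVIN2 (0.85), SLC7A9 (0.85), PLD1 (0.85) and *mtus1b* (0.85). The phospholipase gene PLD1 was on both lists, at a mean of 36.1 CPM in the WT apex and 20.6 CPM at 8 hpi. CAVIN2, a component of caveolae, went from 444 to 138 CPM in WT and from 579 to 99.6 CPM in *thraa*+/- between the uninjured and the 8 hpi groups. The paralogs were not each other's closest match: with r = 0.74, the minor ranked 86 for the major and the major 100 for the minor.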

How the data were processed

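The authors trimmed paired reads with Trim Galore 0.6.10, aligned them with STAR 2.7.9 and ran RSEM 1.3.3 against GRCz11; the annotation release is not given in the sources used here. They deposited expected counts per gene, not normalized, and the TPM values of RSEM, which are scaled within each library for transcript length and depth. Expected counts were rounded. Those of both fhl2 paralogs were whole (within 1e-06) in 28 of 28 libraries; 5.15% to 7.24% of genes in a library were not. Symbols were matched for 29201 of 32520 identifiers.

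Differential expression was computed with edgeR 4.0.16 (R 4.3.3; filterByExpr, TMM, robust quasi-likelihood), with the 12 time-course groups fitted together and the whole hearts apart, and adjusted by Benjamini-Hochberg over all genes tested. Log2 CPM used a prior count of 2. The SE of a log2 fold change was its absolute value divided by the square root of the quasi-likelihood F. It rests on a variance moderated over genes and shared by the fitted groups, and is not the spread of the 2 libraries of a group. Alternatives were DESeq2 1.42.0, total counts, at least 10 counts in every library, no filter, only the compared groups, limma 3.58.1 on log2(TPM + 1) and log2(TPM + 0.1), a replicate block and each library left out. The edgeR fit with TMM was first run on simulated counts with known changes, for 2 groups of each experiment. The joint fit of 12 groups, its response differences and the alternatives were not run on simulated counts. An exact permutation test cannot reach 0.05 with 2 libraries in a group, so none was used.

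The paralogs, the lists of FHL family, LIM protein, titin partner, signalling partner and cell type genes and the alternatives were chosen with earlier results of these data known. Named genes were both paralogs, *thraa*, every tested FHL and titin partner gene, up to 3 rises and 3 falls per comparison in the other lists (of which the text gives a part), and the 5 genes most like each paralog (mean of at least 1 CPM).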

Additional observations from a re-analysis of the deposited data

Results flagged for a closer look

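The injury response differed between the genotypes, by the interaction term, for the minor fhl2 paralog at 8 hpi (-4.08 on the log2 scale), 3 dpi (-1.61) and 7 dpi (1.35). The direction turned between 3 and 7 dpi: *thraa*+/- lost more of its uninjured level early and less of it at 7 dpi. These values describe genes chosen with such results in view, and the 7 dpi value rests on a WT group with 1.68 and 2.97 CPM.

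Among the other FHL genes, the response of FHL1 ENSDARG00000056653 in *thraa*+/- was below that of WT at 8 hpi (-1.17), 1 dpi (-1.0) and 3 dpi (-1.27), from an uninjured level of 21.6 and 23.6 CPM in *thraa*+/- and 11.8 and 12.8 CPM in WT. FHL3 ENSDARG00000034643 responded more in *thraa*+/- at 1 dpi (1.28). FHL3 ENSDARG00000104315 responded more at 7 dpi (2.28) and 15 dpi (1.14). At 15 dpi, however, none of the 4 tested FHL identifiers passed the cutoffs between the genotypes, or in *thraa*+/- against uninjured. The uninjured base of this FHL3 identifier was lower in *thraa*+/- than in WT, by -1.10 without *thraa*+/- uninjured replicate 1.

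Of the titin partners, *ckmb* differed in response at 1 dpi (2.24), 3 dpi (3.11), 7 dpi (-1.35) and 15 dpi (1.57). PFKM ENSDARG00000014179 differed at 1 dpi (1.73).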

How the results depend on the processing

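Under DESeq2 (22 comparisons) and with only the compared groups fitted (21), no call or direction of either paralog changed. The replicate numbers did not pair the libraries (correlation of deviations over 66 time-course pairs between -0.03 and 0.20, 1 of them over 0.1, and 0.03 in whole hearts). With a replicate block no call of either paralog changed, the response difference of the minor paralog at 8 hpi was -4.08, and the count of genes past the cutoffs was 0.96 to 1.00 times the other.

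Calls in the injury comparisons were lost under other scales, in this order: total counts, log2(TPM + 1) and log2(TPM + 0.1). For the major paralog the log2 changes were -0.60, -0.50 and -0.51 in WT at 7 dpi, and for *thraa*+/- hearts, 3 dpi gave -0.98, -0.88 and -0.89, 7 dpi gave -0.11, 0.038 and 0.038, and 15 dpi gave -0.65, -0.44 and -0.45. For the minor paralog, WT hearts at 8 hpi gave -0.91, -0.59 and -0.70, those at 3 dpi gave -0.89, -0.79 and -0.95, and *thraa*+/- hearts at 7 dpi gave -0.76, -0.46 and -0.52. With log2(TPM + 1) the minor paralog was at -0.96 in WT and -0.87 in *thraa*+/- at 15 dpi, the latter -0.996 with log2(TPM + 0.1). Between the genotypes, the major paralog at 8 hpi was at -0.0075, -0.11 and -0.12 under the 3 scales. Under both TPM settings the major paralog in whole hearts was at 0.56 and the minor at 3 dpi at -0.69 and -0.97. The share of higher genes among those past the cutoffs in the injury comparisons was 54.9% to 66.3%, and 80.2% to 91.7% with total counts.

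With at least 10 counts in every library the minor paralog was not tested in the time course, the major in *thraa*+/- at 7 dpi was at -0.82, and the count of genes past the cutoffs between the genotypes fell from between 1114 and 2046 to between 306 and 987. With no filter that major value was -0.98.

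With each library left out in turn, the major paralog ran from -1.04 to -0.96 in *thraa*+/- at 7 dpi, from -1.10 to -0.99 at 15 dpi, and between the genotypes from -0.040 to 0.11 at 8 hpi and from 0.82 to 1.01 at 7 dpi. The minor ran from -0.46 to 0.047 between the genotypes at 1 dpi and from -1.20 to -0.88 at 3 dpi, and its response difference from -1.03 to -0.53 at 1 dpi and from 0.98 to 1.80 at 7 dpi. A group left with 1 library was assumed to vary like the others. Relative to the mean of the cardiomyocyte genes, the major paralog at 1 dpi was at -0.07 in WT and -0.75 in *thraa*+/-. The minor in WT at 3 dpi was at -0.46. With the median of the list the major at 1 dpi was at 0.90 in WT (0.040 on log2(TPM + 1)) and at 0.47 in *thraa*+/-. The minor in WT at 3 dpi was then at 0.14. The cause of these shifts was not tested. Precision is limited by 2 libraries per group, and for the minor paralog at 8 hpi by 7 and 10 counts.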

Other observations

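The uninjured whole hearts and the uninjured apex were separate experiments and were not compared by a test. Side by side, the WT whole hearts held 23.4 and 22.4 TPM of the minor paralog and the WT apex 6.47 and 5.78 TPM, whereas the major paralog held 123 and 130 TPM and 65.6 and 70.1 TPM. Without injury the mutant was above WT in both experiments and for both paralogs, by log2 fold changes of 0.48 and 0.57 in *thraa*+/- apex and 0.94 and 2.16 in *thraa*-/- whole hearts for the major and the minor.

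The number of counts per TPM, scaled to the other genes of a library, follows the transcript length that RSEM assumed. Each experiment was scaled on its own, so the whole hearts are not set beside the time course. In the time course it ranged from 13.6 to 17.9 for the major paralog. For the minor paralog it ranged from 19.0 to 30.3, and the lowest value came from the *thraa*+/- library of 7 counts at 8 hpi. In *thraa*+/- at 7 dpi the minor paralog was at 8.79 and 8.71 CPM but 5.28 and 7.29 TPM.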
